A study of Mus musculus with 6 samples.

Results

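The tumour necrosis factor (TNF) ligands and their receptors are described here in c-Kit+ spleen cells of mice with leukaemia and of mice with myeloproliferative disease. Members were taken by symbol from the deposited table of transcript levels. The rule took every gene whose symbol starts with Tnfsf or Tnfrsf, with Tnf, Lta, Ltb, Ltbr, Cd27, Cd70, Cd40, Cd40lg, Fas and Fasl. It found 42 of the 24054 genes in the table, of which 18 encode ligands and 24 encode receptors. One of the ligand entries, Tnfsf12Tnfsf13, is a read-through transcript that joins neighbouring ligand genes.

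TNF ligands are mostly membrane proteins that act as trimers and can be shed from the cell. Most of their receptors carry a death domain or bind TRAF adaptors. Through a death domain they can start apoptosis or necroptosis, and TRAF adaptors pass the signal to NF-kappaB and to kinase cascades. In blood-forming tissue the families are known for control of inflammation, of lymphoid organ structure, of B cell survival, of T cell co-stimulation and of bone turnover.

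Groups were set by genotype and disease. The 3 AML mice (acute myeloid leukaemia) were Flt3ITD/ITD and Dnmt3afl/-, with MxCre, and the 3 MPN mice (myeloproliferative neoplasm) were Flt3ITD/ITD and Dnmt3afl/fl, with no Cre in their titles. Flt3-ITD on both alleles, an activating internal tandem duplication in the receptor for FLT3 ligand, was thus shared by all 6 mice, controls included. Dnmt3a encodes a DNA methyltransferase, fl marks an allele that Cre can delete, and the Mx promoter drives Cre in interferon-responsive cells, blood cells among them. The labels do not give the age of the mice or say whether the floxed allele was removed. AML mice were moribund at harvest per the labels' protocols, which name the MPN mice as controls, and CD117 beads had been used to enrich c-Kit+ cells from the crushed spleens. Each library is 1 mouse, and Cre, Dnmt3a genotype and disease differ together between the groups, so their parts cannot be told apart.

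Levels are given as TPM, a share of all transcripts scaled to their length, so that genes can be compared with each other. Dnmt3a stood at 11.5, 13.5 and 12.9 TPM in AML mice, against 33.9, 29.3 and 33.4 TPM in MPN mice. Kit, the gene of the selection marker, stood at 99.2 to 130 TPM in AML and 145 to 152 TPM in MPN. The relative depth of the libraries, from the RPKM table, ran from 0.749 to 1.31. AML replicates 1 and 2 were female by Xist and Ddx3y and the other 4 mice male, and MPN replicate 1 came from another sequencing run than the other 5 libraries per the file headers. Comparisons below set AML against MPN with limma across 12223 genes that had at least 1 TPM in at least 3 libraries. A gene is called when its adjusted p is under 0.05. Log2 fold changes are on the log2(TPM + 1) scale, which understates changes of low genes.

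Of the 42 members, 31 passed the filter on low levels and 17 of these were called, 6 higher and 11 lower in AML. The 11 lower calls were 5 without MPN replicate 1 or 2, 6 without AML replicate 1 or MPN replicate 3, 7 with RPKM values and 4 with a term for sex, and the 6 higher calls were 4 without MPN replicate 2 and 3 with a term for sex. Over all tested genes the 1224 lower calls were 757 and 718 without MPN replicate 1 or 2. They were 1201 without AML replicate 1, 906 without MPN replicate 3 and 1385 with RPKM values, where 30 members were tested. The 2454 higher calls over all genes were 1291 without MPN replicate 2. The main counts of members make up 54.8% of the tested members, beside 30.1% of all tested genes. Calls in the higher direction made up 19.4% of the tested members and 20.1% of all tested genes, and calls in the lower direction made up 35.5% of the members and 10.0% of all genes. The higher members were the ligand genes Tnfsf10, Tnfsf11 and Tnfsf12 and the receptor genes Cd27, Ltbr and Tnfrsf26. Lower in AML were the ligand genes Ltb and Tnfsf13b and the receptor genes Cd40, Fas, Tnfrsf1b, Tnfrsf4, Tnfrsf9, Tnfrsf11a, Tnfrsf13c, Tnfrsf14 and Tnfrsf18. The median log2 fold change was 0.094 over 12 tested ligands and -0.50 over 19 tested receptors, beside 0.13 over all tested genes. In such bulk samples fewer cells of a type and less RNA per cell cannot be told apart. AML and MPN mice did not overlap for 20 of the 31 members, or 64.5%, against 50.9% of all tested genes. With 3 mice in each group, the smallest p an exact permutation test can give is 0.1, and it was 0.1 for each of these 20.

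**Figure D1:**
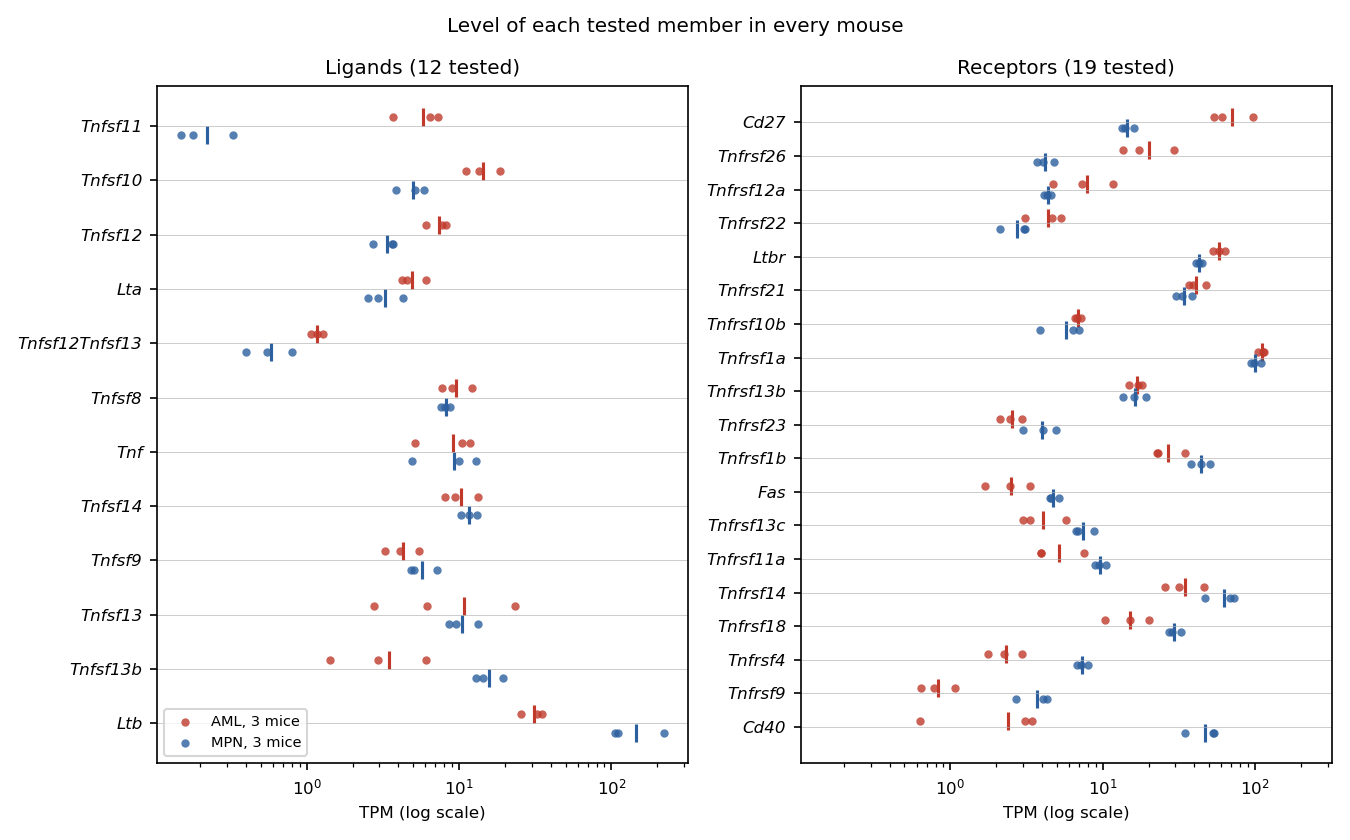
Level of each of the 31 tested members in TPM on a log axis, with 12 ligand genes on the left and 19 receptor genes on the right, sorted by log2 fold change. Points are single mice, with AML above MPN in each row, and vertical ticks are means; Cd27 and Tnfsf11 lie to the right in all 3 AML mice, while Cd40 and Ltb lie to the left.

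Among ligands of death receptors, Tnfsf10, which encodes TRAIL, was higher in AML. TRAIL can trigger apoptosis through its death-domain receptor, encoded in the mouse by Tnfrsf10b. Tnfsf10 stood at 18.6, 13.6 and 11.2 TPM in AML mice, against 5.10, 5.89 and 3.86 TPM in MPN mice. Every AML mouse lay above every MPN mouse, and the mean of AML was 2.92 times that of MPN. The log2 fold change was 1.36 ± 0.23 (SE, n = 3 each), with a limma adjusted p of 0.00517. With a term for sex in the model the call ended (fold change 1.048 on the log2 scale, adjusted p = 0.0777, in a range of 0.00123 to 0.0777 over the 16 alternatives).

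Tnf itself, the founding inflammatory ligand of the family, stood at 10.5, 5.11 and 11.8 TPM in AML mice, against 10.01, 12.96 and 4.90 TPM in MPN mice. Both groups held mice near 5 TPM and mice above 10 TPM, and they overlapped throughout. The log2 fold change was -0.0045 ± 0.39 (SE), with an adjusted p of 0.995, and its sign turned under several alternatives. Fasl, the ligand of Fas, and Tnfsf15, a ligand of the death-domain receptor gene Tnfrsf25, were not tested, since Fasl reached at most 0.40 TPM and Tnfsf15 at most 0.92 TPM. Tnfsf15 stood at 0.02, 0.03 and 0.08 TPM in AML mice, against 0.57, 0.80 and 0.92 TPM in MPN mice.

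Of the 4 tested receptor genes with a death domain, Fas was called and Tnfrsf1a, Tnfrsf21 and Tnfrsf10b were not. Tnfrsf1a, the main TNF receptor of most cells, had the highest mean of all members in AML, at 113, 115 and 105 TPM in AML mice, against 98.6, 93.9 and 110 TPM in MPN mice. Its groups overlapped at the lowest AML and the highest MPN mouse (log2 fold change 0.14 ± 0.11 SE, adjusted p = 0.347). Tnfrsf21, which encodes death receptor DR6, stood at 37.0, 47.5 and 39.3 TPM in AML mice, against 38.7, 30.2 and 33.1 TPM in MPN mice (0.27 ± 0.15 SE, adjusted p = 0.201). It was called with array weights only (0.47, adjusted p = 0.0277, in a range of 0.0277 to 0.630). Tnfrsf10b, the TRAIL receptor gene, stood at 7.20, 6.81 and 6.58 TPM in AML mice, against 7.0, 6.43 and 3.89 TPM in MPN mice (0.25 ± 0.22 SE, adjusted p = 0.412). The TRAIL receptor gene thus showed overlapping groups where the gene of its ligand did not overlap. Tnfrsf25 was not tested and stood between 0.61 and 1.09 TPM in AML and between 0.69 and 0.95 TPM in MPN.

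Fas, the death receptor that removes activated lymphocytes, was lower in AML. It stood at 1.68, 3.34 and 2.48 TPM in AML mice, against 4.5, 4.58 and 5.16 TPM in MPN mice. No AML mouse reached the lowest MPN mouse (log2 fold change -0.74 ± 0.21 SE, adjusted p = 0.0358). This call ended without AML replicate 1 or 3 (adjusted p = 0.0637 and 0.0623) and without MPN replicate 1, 2 or 3 (0.0852, 0.103 and 0.1002). It also ended with no filter (0.0666), in the RPKM table (0.0559) and with a term for sex (0.227), with a range of 0.0207 to 0.227 over its 15 alternatives. The log2 fold change was -0.74 with no filter, -0.47 in RPKM and -0.72 with the term for sex, and it lay between -0.91 and -0.56 with 1 mouse left out.

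Ltb, lower in AML, encodes lymphotoxin beta, which with lymphotoxin alpha binds the receptor encoded by Ltbr and shapes lymph nodes and spleen. Ltb stood at 25.6, 35.0 and 32.6 TPM in AML mice, against 106, 110 and 222 TPM in MPN mice. The MPN mice were unequal, with MPN replicate 3 at about the sum of the other two, and all of them lay far above the AML mice. AML averaged 31.1 ± 4.85 TPM and MPN 146 ± 66.1 TPM (SD, n = 3 each), which is -2.12 ± 0.29 (SE) on the log2 scale (adjusted p = 0.00234). The call held under all 16 alternatives.

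The window before the start of Ltb is shown because it held matches to 2 of the 3 motifs searched in the promoters of called members. RefSeq places it on GRCm38.p6 at chr17:35194257-35194506 on the plus strand, and the 250 bases end just before the transcript start. Capitals mark a STAT motif, TTCNNNGAA, that begins 172 bases before the start, and a kappaB motif, GGGANNTTC read on the other strand, that begins 86 bases before it.
Ltb: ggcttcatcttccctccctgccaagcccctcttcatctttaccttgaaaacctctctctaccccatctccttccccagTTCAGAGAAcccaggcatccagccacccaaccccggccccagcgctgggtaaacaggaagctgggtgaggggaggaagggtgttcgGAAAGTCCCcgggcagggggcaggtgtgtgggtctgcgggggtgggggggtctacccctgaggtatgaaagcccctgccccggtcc

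Its neighbours on chromosome 17, Tnf and Lta, were not called. On GRCm38, Ltb ends 3061 bases from the end of Tnf, and Lta follows Tnf after another 1158 bases. Lta, the gene of lymphotoxin alpha, stood at 4.19, 4.57 and 6.05 TPM in AML mice, against 2.94, 4.27 and 2.53 TPM in MPN mice. Its groups overlapped at a single pair of mice (log2 fold change 0.49 ± 0.22 SE, adjusted p = 0.123). Tnfsf14, which encodes LIGHT, a ligand of the receptors encoded by Ltbr and Tnfrsf14, stood at 8.03, 13.3 and 9.47 TPM in AML mice, against 11.6, 10.2 and 13.2 TPM in MPN mice. These groups overlapped, with an adjusted p of 0.505.

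The receptor genes for TNF and lymphotoxin other than Tnfrsf1a moved in both directions by modest amounts. Ltbr, the lymphotoxin beta receptor, stood at 63.9, 52.8 and 57.8 TPM in AML mice, against 43.0, 41.0 and 44.6 TPM in MPN mice. All AML mice lay above all MPN mice, while the gene of the ligand, Ltb, lay below (Ltbr log2 fold change 0.43 ± 0.12 SE, adjusted p = 0.0297). Its call ended under median scaling (0.34, adjusted p = 0.0700) and quantile normalization (0.34, adjusted p = 0.0591). It ended as well without AML replicate 1 or 3 (0.0546 and 0.0593), without MPN replicate 1, 2 or 3 (0.0899, 0.119 and 0.0560) and with a term for sex (0.209), with a range of 0.00603 to 0.209 over 16 alternatives. The log2 fold change was 0.42 with the term for sex and lay between 0.36 and 0.49 with 1 mouse left out.

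Tnfrsf1b, the TNF receptor of immune cells that lacks a death domain, stood at 22.8, 35.0 and 23.1 TPM in AML mice, against 44.1, 37.9 and 50.6 TPM in MPN mice. The highest AML mouse came close to the lowest MPN mouse without reaching it (log2 fold change -0.71 ± 0.20 SE, adjusted p = 0.0327). The call ended without AML replicate 1 or 3 (0.0723 and 0.0720) and without MPN replicate 1, 2 or 3 (0.0878, 0.0550 and 0.106). With array weights (log2 fold change -0.40, adjusted p = 0.0802), no filter (0.0525), RPKM (0.0572) and a term for sex (0.0985) it ended too, with a range of 0.0131 to 0.106. With sex modelled the log2 fold change was -0.90, and it lay between -0.91 and -0.61 with 1 mouse left out. Its promoter is shown because it held a STAT match that begins 181 bases before the start and an interferon response element core, GAAANNGAA on the other strand, that begins 9 bases before it. The window lies on GRCm38.p6 at chr4:145246871-145247120 on the minus strand.
Tnfrsf1b: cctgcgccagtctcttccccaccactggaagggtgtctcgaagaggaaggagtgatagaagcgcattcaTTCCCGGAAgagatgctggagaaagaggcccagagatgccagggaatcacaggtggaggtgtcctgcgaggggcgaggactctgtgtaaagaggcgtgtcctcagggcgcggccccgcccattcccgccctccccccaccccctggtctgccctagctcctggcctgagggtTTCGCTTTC

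Tnfrsf14, which encodes HVEM, a receptor for LIGHT and for inhibitory partners on lymphocytes, stood at 25.8, 46.6 and 31.6 TPM in AML mice, against 68.8, 73.0 and 46.8 TPM in MPN mice. AML replicate 2 and MPN replicate 3 lay within 1 TPM of each other, so the gap between the groups was narrow (log2 fold change -0.86 ± 0.25 SE, adjusted p = 0.0385). The call ended without AML replicate 1 or 3 (0.0839 and 0.0726), without MPN replicate 1 or 2 (0.111 and 0.124), with no filter (0.0657) and with a term for sex (0.172), with a range of 0.00587 to 0.172. With the term for sex the log2 fold change was -0.94, and it lay between -1.09 and -0.67 with 1 mouse left out.

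Cd40 had the largest change of the tested members on the log2(TPM + 1) scale. It encodes a receptor of B cells, dendritic cells and macrophages that takes the T cell signal CD40L. Cd40 stood at 0.63, 3.45 and 3.08 TPM in AML mice, against 34.6, 53.3 and 53.9 TPM in MPN mice. AML replicate 1 was lowest, and even the highest AML mouse lay an order of magnitude below the lowest MPN mouse. The mean of MPN was 19.8 times that of AML, which is -3.94 ± 0.39 (SE) on the log2 scale for AML over MPN (adjusted p = 0.000722), and the call held under all 16 alternatives. Cd40lg, the gene of its ligand and a marker of activated T cells, was near 0, at 0.03, 0.00 and 0.00 TPM in AML mice, against 0.04, 0.04 and 0.08 TPM in MPN mice.

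Tnfsf13b, which encodes BAFF, a survival factor that myeloid cells supply to B cells, was lower in AML. It stood at 1.42, 6.03 and 2.93 TPM in AML mice, against 19.5, 14.4 and 12.98 TPM in MPN mice. The groups did not overlap, and AML averaged 22.2% of the MPN level (log2 fold change -2.01 ± 0.38 SE, adjusted p = 0.00785). With a term for sex the fold change was -2.06 and the adjusted p 0.0632, in a range of 0.00243 to 0.0632. RefSeq lists more than 1 start for Tnfsf13b. The window of the outer start, at chr8:10006217-10006466, held none of the 3 motifs. The window of the inner start is shown because it held an interferon response element core that begins 16 bases before that start, in capitals. It lies on GRCm38.p6 at chr8:10006383-10006632 on the plus strand.
Tnfsf13b: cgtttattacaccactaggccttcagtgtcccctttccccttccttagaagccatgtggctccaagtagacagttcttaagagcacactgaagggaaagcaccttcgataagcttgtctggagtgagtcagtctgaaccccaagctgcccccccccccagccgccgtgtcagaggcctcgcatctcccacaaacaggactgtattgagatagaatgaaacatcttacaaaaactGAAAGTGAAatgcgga

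The receptors for BAFF differed among themselves. Tnfrsf13c, the BAFF receptor, stood at 3.35, 3.01 and 5.76 TPM in AML mice, against 6.65, 8.74 and 6.84 TPM in MPN mice. The groups did not overlap, though AML replicate 3 came near the MPN mice (log2 fold change -0.77 ± 0.24 SE, adjusted p = 0.0460). The call ended under 10 of its 16 alternatives, with log2 fold changes of -1.001 to -0.31 and adjusted p of 0.00646 to 0.535. Among them were leaving out AML replicate 1 or 2 (0.10 and 0.121) and MPN replicate 1, 2 or 3 (0.0882, 0.159 and 0.0950).

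Tnfrsf13b, which encodes TACI, a receptor for BAFF and APRIL, stood at 14.9, 18.1 and 17.2 TPM in AML mice, against 13.5, 16.2 and 19.4 TPM in MPN mice. Its groups overlapped throughout (log2 fold change 0.04 ± 0.17 SE, adjusted p = 0.881), and under median scaling the sign turned (-0.045). Tnfrsf17, the BCMA gene of plasma cells, fell under the filter, at 0.05, 0.07 and 0.00 TPM in AML mice, against 3.66, 3.52 and 0.94 TPM in MPN mice. It was called with no filter (log2 fold change -1.73, adjusted p = 0.0188).

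Tnfsf13, the gene of APRIL, was the most uneven tested member among AML mice. It stood at 2.75, 23.3 and 6.18 TPM in AML mice, against 13.4, 8.61 and 9.51 TPM in MPN mice. AML replicate 2 lay above all MPN mice and the other two AML mice below them, so the groups overlapped (log2 fold change -0.38 ± 0.61 SE, adjusted p = 0.654).

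Markers of B and plasma cells, macrophages, dendritic cells and monocytes moved with the fall of Cd40, Ltb, Tnfsf13b and Tnfrsf13c, and their part in it was not tested. Of 9 tested B and plasma cell markers 8 were lower in AML, 6 of which had passed the filter through the MPN mice alone. The summed level of the list was 30.9 to 47.4 TPM in AML and 331 to 505 TPM in MPN. Igj alone made up 1.92 to 9.42 TPM of the AML sums and 219.9 to 410.4 TPM of the MPN sums. Cd79b, which was not called, made up 26.05 to 33.94 TPM of the AML sums and 26.93 to 38.24 TPM of the MPN sums. Of 10 tested macrophage markers 8 were lower, with sums of 82.7 to 175 TPM in AML and 396 to 495 TPM in MPN. Dendritic cell markers were lower for 8 of 14 and higher for Flt3, with sums of 538 to 1999 TPM in AML and 2252 to 2757 TPM in MPN. Monocyte markers were lower for 7 of 9 and higher for Cd14, with sums of 723 to 1795 TPM in AML and 2137 to 2411 TPM in MPN. Through the MPN mice alone had passed 2 of the lower dendritic cell markers, 1 of the macrophage markers and 1 of the monocyte markers. No marker of these lists was at 0 in all 3 AML mice, while the macrophage genes C1qa and Marco were at 0 in AML replicates 2 and 3.

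Cd27, higher in AML, encodes a co-stimulatory receptor of lymphocytes that is also found on blood progenitors. Cd27 stood at 60.4, 96.8 and 53.9 TPM in AML mice, against 16.1, 13.4 and 13.98 TPM in MPN mice. The lowest AML mouse lay far above the highest MPN mouse, and the mean of AML was 4.85 times that of MPN. Its log2 fold change was 2.16 ± 0.22 (SE), with an adjusted p of 0.000810 and a call under all 16 alternatives. Cd70, the gene of its only known ligand, was listed at 0 in all AML mice and in MPN replicate 1, and at 0.57 and 0.27 TPM in MPN replicates 2 and 3.

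The promoter of Cd27 is shown beside those of the fallen genes, as none of the 3 motifs was found in it. The promoters of the lower genes Tnfrsf11a and Tnfrsf13c, which are not shown, held none of them either. The Cd27 window lies on GRCm38.p6 at chr6:125237028-125237277 on the minus strand.
Cd27: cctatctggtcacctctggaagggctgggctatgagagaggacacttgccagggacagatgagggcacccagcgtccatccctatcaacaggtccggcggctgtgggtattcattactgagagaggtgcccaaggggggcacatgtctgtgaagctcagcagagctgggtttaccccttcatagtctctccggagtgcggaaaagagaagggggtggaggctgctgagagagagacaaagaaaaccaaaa

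The other tested co-stimulatory receptor genes went the opposite way to Cd27. Tnfrsf4, which encodes OX40 of activated T cells, stood at 2.95, 2.25 and 1.77 TPM in AML mice, against 6.75, 7.99 and 7.22 TPM in MPN mice. Every AML mouse was under 3 TPM and every MPN mouse over 6 TPM (log2 fold change -1.34 ± 0.19 SE, adjusted p = 0.00265). Tnfrsf9, which encodes 4-1BB of activated T and NK cells, stood at 1.07, 0.64 and 0.78 TPM in AML mice, against 4.32, 2.69 and 4.08 TPM in MPN mice (-1.35 ± 0.21 SE, adjusted p = 0.00371). Both calls held under every alternative that could be fitted, 16 for Tnfrsf4 and 14 for Tnfrsf9, while a pseudocount of 5 shrank the fold changes to -0.75 and -0.57. Tnfrsf9 reached 1 TPM in 1 AML mouse and all 3 MPN mice, so it passed the filter by its MPN levels. It fell under the filter at 5 TPM and with RPKM values. Tnfrsf18, which encodes GITR of regulatory T cells and lies 9552 bases beyond Tnfrsf4 on chromosome 4, stood at 10.3, 15.1 and 20.3 TPM in AML mice, against 28.6, 27.5 and 32.8 TPM in MPN mice. These groups did not overlap either (-0.96 ± 0.23 SE, adjusted p = 0.0203). The Tnfrsf18 call ended without MPN replicate 1, 2 or 3 (0.0564, 0.0562 and 0.0754) and once sex was a term of the model (-0.52, adjusted p = 0.275), in a range of 0.00387 to 0.275. With 1 mouse left out its log2 fold change lay between -1.18 and -0.72. Tnfrsf8, the CD30 gene, reached at most 0.25 TPM and was not tested.

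Their ligand genes showed no call. Tnfsf9, the 4-1BB ligand, stood at 5.42, 3.27 and 4.11 TPM in AML mice, against 4.80, 5.08 and 7.14 TPM in MPN mice (log2 fold change -0.35 ± 0.22 SE, adjusted p = 0.268). Tnfsf8, the CD30 ligand, stood at 12.2, 8.95 and 7.72 TPM in AML mice, against 8.77, 7.64 and 8.06 TPM in MPN mice (0.19 ± 0.19 SE, adjusted p = 0.468). Both pairs of groups overlapped. Tnfsf4, the OX40 ligand, and Tnfsf18, the GITR ligand, were not tested, with at most 1.41 and 0.31 TPM in any mouse.

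T and NK cell markers were lower for 14 of 17 and higher for Nkg7, and their part in the fall of these receptor genes was not tested. Of those 14, 10 had passed the filter through the MPN mice alone, so their direction was set by the filter. The summed level of that list was 290 to 487 TPM in AML and 324 to 419 TPM in MPN. Nkg7 alone made up 278 to 472 TPM of the AML sums and 89.8 to 117 TPM of the MPN sums, whereas Cd3e, a defining T cell gene, stood at 0.06 to 0.10 TPM in AML and 1.76 to 3.40 TPM in MPN. Of 12 stem and progenitor markers, 8 were called higher in AML, as Cd27 was, with 0 lower and 4 not called. Of the 8, 1 had passed the filter through the AML mice alone. The sums of this list overlapped, at 4646 to 11139 TPM in AML and 3504 to 4844 TPM in MPN. Mpo, which was not called, made up 1245 to 4468 TPM of the AML sums and 1199 to 1977 TPM of the MPN sums. Kit, also of this list and not called, lay below every MPN mouse in all AML mice. The part of these markers in the rise of Cd27 was not tested.

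Tnfsf11, the gene of RANKL, was higher in AML. RANKL drives the formation of osteoclasts and of lymph nodes through the receptor RANK, encoded by Tnfrsf11a. Tnfsf11 stood at 7.26, 3.71 and 6.40 TPM in AML mice, against 0.15, 0.18 and 0.33 TPM in MPN mice. It passed the filter through the AML mice alone, and the lowest AML mouse lay an order of magnitude above the highest MPN mouse, with a mean of AML 26.3 times that of MPN. The log2 fold change was 2.44 ± 0.24 (SE), with an adjusted p of 0.000669 and a call under all 15 alternatives that could be fitted. Because MPN levels were low, the size depended on the pseudocount, at 4.19 with 0.1 and 1.03 with 5, and it was 1.42 in the RPKM table.

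The promoter of Tnfsf11 is shown with that of Cd27, since none of the 3 motifs was found in either. The window lies on GRCm38.p6 at chr14:78308044-78308293 on the minus strand.
Tnfsf11: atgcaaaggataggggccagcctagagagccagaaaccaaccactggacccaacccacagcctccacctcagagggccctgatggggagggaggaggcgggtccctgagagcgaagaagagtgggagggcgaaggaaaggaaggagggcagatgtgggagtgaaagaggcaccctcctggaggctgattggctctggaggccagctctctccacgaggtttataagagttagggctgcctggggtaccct

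The receptor gene Tnfrsf11a went the other way. It stood at 3.93, 3.96 and 7.57 TPM in AML mice, against 8.88, 9.40 and 10.5 TPM in MPN mice. AML replicate 3 came nearest to the MPN mice, but the groups did not overlap (log2 fold change -0.83 ± 0.24 SE, adjusted p = 0.0389). The call ended without AML replicate 1 or 2 (0.0865 and 0.105), without MPN replicate 1, 2 or 3 (0.0827, 0.107 and 0.113), with no filter (0.0751) and once sex was a term of the model (-0.30, adjusted p = 0.492), in a range of 0.00656 to 0.492. With 1 mouse left out its log2 fold change lay between -1.10 and -0.70. Tnfrsf11b, the gene of the soluble decoy osteoprotegerin, was listed at 0.04, 0.02 and 0.05 TPM in AML mice and at 0 in all MPN mice.

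Tnfsf12, the gene of TWEAK, a ligand that acts on tissue repair and vessels, was higher in AML by the TPM table. It stood at 6.09, 8.15 and 7.76 TPM in AML mice, against 3.64, 2.71 and 3.68 TPM in MPN mice. Those groups did not overlap (log2 fold change 0.94 ± 0.18 SE, adjusted p = 0.00952). In the RPKM table they did, at 2.29, 6.899 and 3.21 RPKM in AML mice, against 3.57, 2.27 and 2.88 RPKM in MPN mice, and no call was made there (0.31, adjusted p = 0.482). The call ended as well without MPN replicate 2 (0.83, adjusted p = 0.0504) and once sex was modelled (1.02, adjusted p = 0.0695), in a range of 0.000816 to 0.482. Tnfsf12 and Tnfsf13 lie on chromosome 11, 466 bases apart on the same strand, and the read-through gene spans both and an antisense gene, Tnfsf13os, overlaps them, so reads can be split among them and each of the 3 values is uncertain. The read-through transcript Tnfsf12Tnfsf13 passed the filter through the AML mice alone and stood at 1.17, 1.06 and 1.28 TPM in AML mice, against 0.80, 0.40 and 0.55 TPM in MPN mice (0.46 ± 0.17 SE, adjusted p = 0.0814, with 4 of its 15 alternatives past the threshold in a range of 0.0272 to 0.938).

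Tnfrsf12a, which encodes the TWEAK receptor Fn14, stood at 11.8, 4.7 and 7.31 TPM in AML mice, against 4.34, 4.15 and 4.58 TPM in MPN mice. All AML mice lay above the MPN mice, AML replicate 2 by a small margin (log2 fold change 0.66 ± 0.29 SE, adjusted p = 0.118). Without AML replicate 2 it was called (0.94, adjusted p = 0.0328, in a range of 0.0328 to 0.424). Tnfrsf19, an orphan receptor gene of epithelial and nerve tissue, was listed at 0 in all AML mice and at 0.06 to 0.16 TPM in MPN mice.

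**Figure D2:**
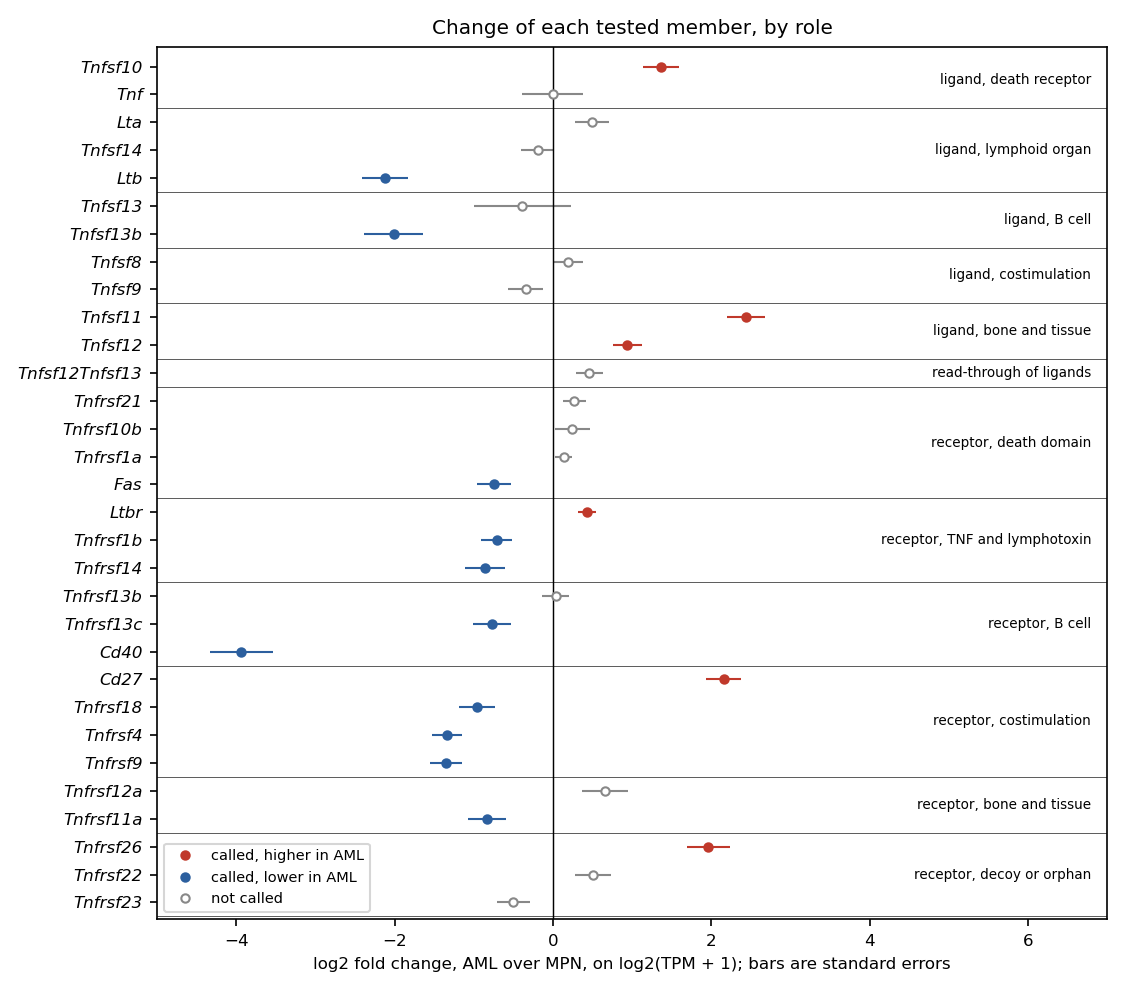
Log2 fold change of AML over MPN with its standard error for the 31 tested members, grouped by role from ligands at the top to receptors at the bottom. Filled points are called members, red for higher and blue for lower in AML, and open points are not called; Tnfsf11 at 2.44 and Cd40 at -3.94 mark the ends of the range.

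The decoy and orphan receptor genes of the mouse, Tnfrsf22, Tnfrsf23 and Tnfrsf26, lie side by side on chromosome 7 and differed in direction. In the mouse the first pair encode TRAIL-binding receptors without a death domain. Tnfrsf26 stood at 29.4, 17.4 and 13.7 TPM in AML mice, against 4.80, 4.08 and 3.71 TPM in MPN mice. The AML mice were spread over about a factor of 2 and all lay far above the MPN mice (log2 fold change 1.96 ± 0.27 SE, adjusted p = 0.00255), a call that held under all 16 alternatives. Tnfrsf22, which lies 16148 bases from Tnfrsf23, stood at 5.36, 4.68 and 3.08 TPM in AML mice, against 3.03, 3.08 and 2.11 TPM in MPN mice. The groups met at 3.08 TPM (0.51 ± 0.22 SE, adjusted p = 0.123), and without AML replicate 3 the gene was called (0.70, adjusted p = 0.0494, in a range of 0.0494 to 0.811). Tnfrsf23 stood at 2.13, 2.97 and 2.47 TPM in AML mice, against 4.96, 4.07 and 3.02 TPM in MPN mice. Here the AML mice lay below the MPN mice (-0.50 ± 0.20 SE, adjusted p = 0.103), with calls under median scaling (-0.58, adjusted p = 0.0422), quantile normalization (-0.61, adjusted p = 0.0269) and array weights (-0.47, adjusted p = 0.0388), in a range of 0.0269 to 0.374. Tnfrsf22 and Tnfrsf23 are close paralogs, and the values of both are uncertain where reads could come from either.

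The 11 members that fell under the filter were the ligand genes Cd40lg, Cd70, Fasl, Tnfsf4, Tnfsf15 and Tnfsf18 and the receptor genes Tnfrsf8, Tnfrsf11b, Tnfrsf17, Tnfrsf19 and Tnfrsf25. Of these, 8 stayed under 1 TPM in all mice, and the highest value of any of them was 3.66 TPM, for Tnfrsf17 in MPN replicate 1. Without the filter Tnfsf15 (log2 fold change -0.75, adjusted p = 0.00288), Tnfsf18 (-0.28, adjusted p = 0.0187) and Tnfrsf19 (-0.15, adjusted p = 0.0346) were called lower in AML along with Tnfrsf17. The calls of Tnfsf18 and Tnfrsf19 rest on values near 0, at most 0.31 and 0.16 TPM in any mouse.

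**Figure D3:**
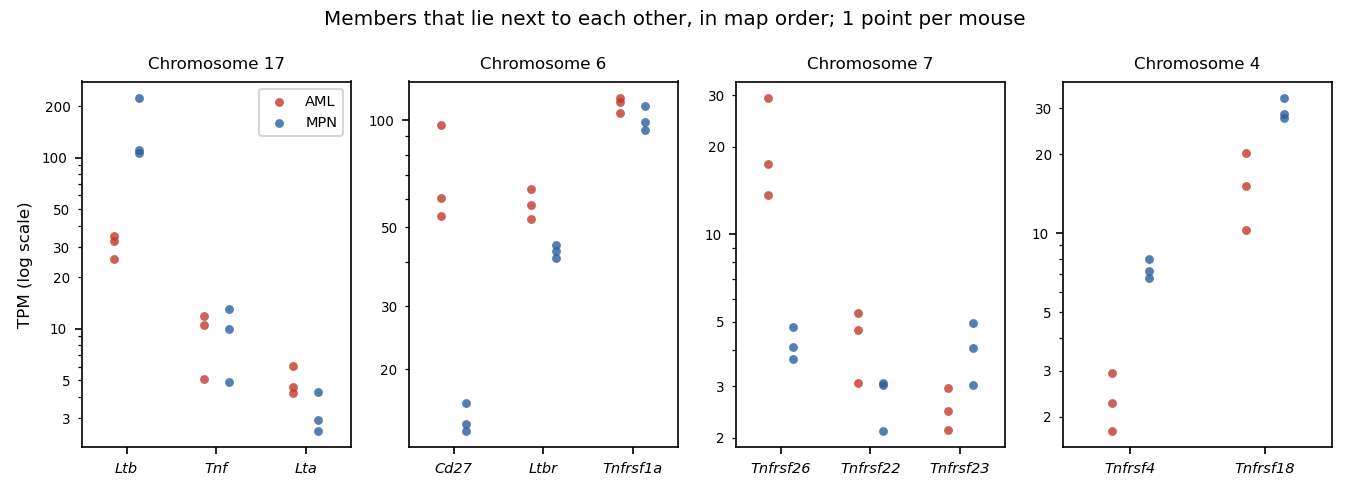
TPM of neighbouring members on a log axis in 4 groups of genes, in map order on chromosomes 17, 6, 7 and 4. Points are single mice, AML left of MPN; the groups separate for Ltb but overlap for Tnf and Lta, and both genes of the chromosome 4 pair are lower in AML.

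Of 41 members that are single genes with a position, 22 lay within 200 kb of another, in 9 groups. Neighbours shared a call in 2 of these groups, Tnfrsf4 with Tnfrsf18 on chromosome 4 and Cd27 with Ltbr on chromosome 6. Tnfrsf1a, 35477 bases from Ltbr, was not called. In the remaining groups a called member, where there was one, lay beside members that were not called or not tested.

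The 3 motifs were searched on both strands of RefSeq promoters on GRCm38.p6, from 250 bases before to 50 after each start. Of the 17 called members 14 had an entry, and 3 (Cd40, Tnfrsf26 and Tnfsf12) are named here without a sequence. At least 1 match was found for 8 of the 10 lower genes and 0 of the 4 higher genes, against 8 of 17 members that were not called or not tested and 21.3% of all genes with an entry, counted over all windows of a gene. Across all 32851 windows the interferon core was present in 8.56%, the kappaB motif in 3.94% and the STAT motif, which reads the same on both strands, in 8.30%. The motifs can overlap each other. A match says only that these letters are in the window, and the number of called members is small.

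By the ratio of highest to lowest mouse, AML mice varied more among themselves than MPN mice for 21 of the 31 tested members. That is 67.7%, near the 63.6% of all tested genes. The median ratio over the members was 1.67 in AML and 1.43 in MPN, and over all tested genes 1.37 in AML and 1.27 in MPN. AML replicate 1 was the lowest AML mouse for 15 of the 31 members, or 48.4%, Cd40, Fas, Tnfsf13 and Tnfsf13b among them, beside 31.3% of all tested genes. The summed dendritic cell, macrophage, monocyte and mature neutrophil markers were lowest in AML replicate 1 as well, at 538, 82.7, 723 and 6885 TPM, against 1332, 175, 1795 and 20615 TPM in AML replicate 2. Their part in this pattern was not tested. Against MPN, mature neutrophil markers were lower in AML for 7 of 9 (sums of 6885 to 20615 TPM in AML and 30426 to 48248 TPM in MPN), and erythroid markers for 1 of 10 (63.0 to 836 TPM in AML and 510 to 1026 TPM in MPN). Markers of megakaryocytes and platelets were higher for 3 of 7 (92.2 to 130 TPM in AML and 38.2 to 70.4 TPM in MPN). Of these sums Itga2b, called higher, made up 30.36 to 75.36 TPM in AML and 4.68 to 11.45 TPM in MPN, while Pf4, Ppbp, Gp1ba and Vwf were not called. Markers of mast cells and basophils were higher for 3 of 6 (147 to 275 TPM in AML and 64.2 to 125 TPM in MPN). Of 3 tested stromal and endothelial markers, Pecam1 and Pdgfrb were higher and Kdr, past the filter through the MPN mice alone, was lower. The sums of this list were 80.2 to 107 TPM in AML and 36.8 to 48.8 TPM in MPN. Pecam1 alone made up 60.4 to 91.8 TPM of the AML sums and 26.5 to 30.1 TPM of the MPN sums. Kdr stood at 0.08 to 0.22 TPM in AML and 4.5 to 16.06 TPM in MPN. Cdh5, Cxcl12, Col1a1, Col1a2 and Col3a1 were not tested, and each had a lower mean in AML. Col1a1 and Col3a1 reached at most 0.25 TPM in any mouse.

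The sum over the 18 ligand genes was 105, 127 and 108 TPM in AML mice, against 188, 185 and 292 TPM in MPN mice, of which Ltb alone made up the larger part in MPN. The sum over the 24 receptor genes was 418, 481 and 403 TPM in AML mice, against 446, 446 and 458 TPM in MPN mice. The receptor sums thus overlapped between the groups and the ligand sums did not. Ltb gave 25.6, 35.0 and 32.6 TPM of the AML ligand sums, against 106, 110 and 222 TPM of the MPN ligand sums. The gap between the ligand sums thus lay largely in this gene and does not describe the ligands in general.

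Genes that act below the receptors or beside the families were called about as often as genes in general, but the directions differed. Of 52 tested genes in 4 lists of signalling genes, 2 were higher and 14 lower in AML. Together that is 30.8%, beside 30.1% of all tested genes. Lower calls made up 26.9% of these genes and 10.0% of all tested genes, and higher calls 3.85% and 20.1%. Without MPN replicate 2 the 14 lower calls were 9. The median log2 fold change of the 52 genes was -0.14, beside 0.13 for all tested genes. Among 16 kinases and subunits of NF-kappaB, 5 were lower, 0 higher and 11 not called. The 31.2% called lower is beside 10.0% of all tested genes. Relb, the partner subunit of the non-canonical pathway that Cd40, Ltbr and the BAFF receptor use, averaged 11.8 ± 1.08 TPM in AML mice and 90.1 ± 28.2 TPM in MPN mice (SD, n = 3 each; log2 difference -2.80 ± 0.21 SE, adjusted p = 0.000272). Rel averaged 14.1 ± 0.276 TPM in AML mice and 43.5 ± 2.69 TPM in MPN mice (adjusted p = 0.000267), and Nfkb2, the precursor of p52, averaged 28.3 ± 2.21 TPM in AML mice and 93.8 ± 18.3 TPM in MPN mice (adjusted p = 0.000546).

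Among 20 adaptors, ubiquitin ligases and feedback enzymes, 8 were lower and 0 higher, and the 40% called lower is beside 10.0% of all tested genes. Birc3, a ubiquitin ligase bound to TRAF2, averaged 36.8 ± 4.53 TPM in AML mice and 115 ± 8.10 TPM in MPN mice (log2 difference -1.63 ± 0.12 SE, adjusted p = 0.000275). Traf1, a TRAF adaptor induced by NF-kappaB, averaged 21.9 ± 10.8 TPM in AML mice and 102 ± 21.6 TPM in MPN mice (adjusted p = 0.00488). Tnfaip3, the feedback enzyme A20, averaged 11.5 ± 3.65 TPM in AML mice and 38.9 ± 9.48 TPM in MPN mice (adjusted p = 0.00426). With sex in the model the log2 fold changes of Traf1 and Tnfaip3 were -1.64 and -1.38 and the calls were lost (adjusted p = 0.0590 and 0.0588, in ranges of 0.000299 to 0.0590 and 0.000444 to 0.0588).

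Among 12 genes of death signalling, 2 were higher and 0 lower, and the 16.7% called higher is beside 20.1% of all tested genes. They were Mlkl, the pore-forming effector of necroptosis, at 51.0 ± 4.22 TPM in AML mice and 16.04 ± 3.22 TPM in MPN mice (log2 difference 1.63 ± 0.17 SE, adjusted p = 0.000865), and its kinase Ripk3, at 83.5 ± 2.20 TPM in AML mice and 39.7 ± 4.88 TPM in MPN mice (1.06 ± 0.12 SE, adjusted p = 0.00126). The groups did not overlap for either gene, and both calls held under all 16 alternatives. Of 4 tested superfamily genes outside the symbol rule and shedding proteases, Ngfr, the neurotrophin receptor gene, was lower, at 0.310 ± 0.114 TPM in AML mice and 2.32 ± 0.957 TPM in MPN mice (-1.31 ± 0.23 SE, adjusted p = 0.00636). Ngfr passed the filter through the MPN mice alone, and its call ended with a term for sex (-1.25, adjusted p = 0.0691, in a range of 0.00157 to 0.0691).

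**Figure D4:**
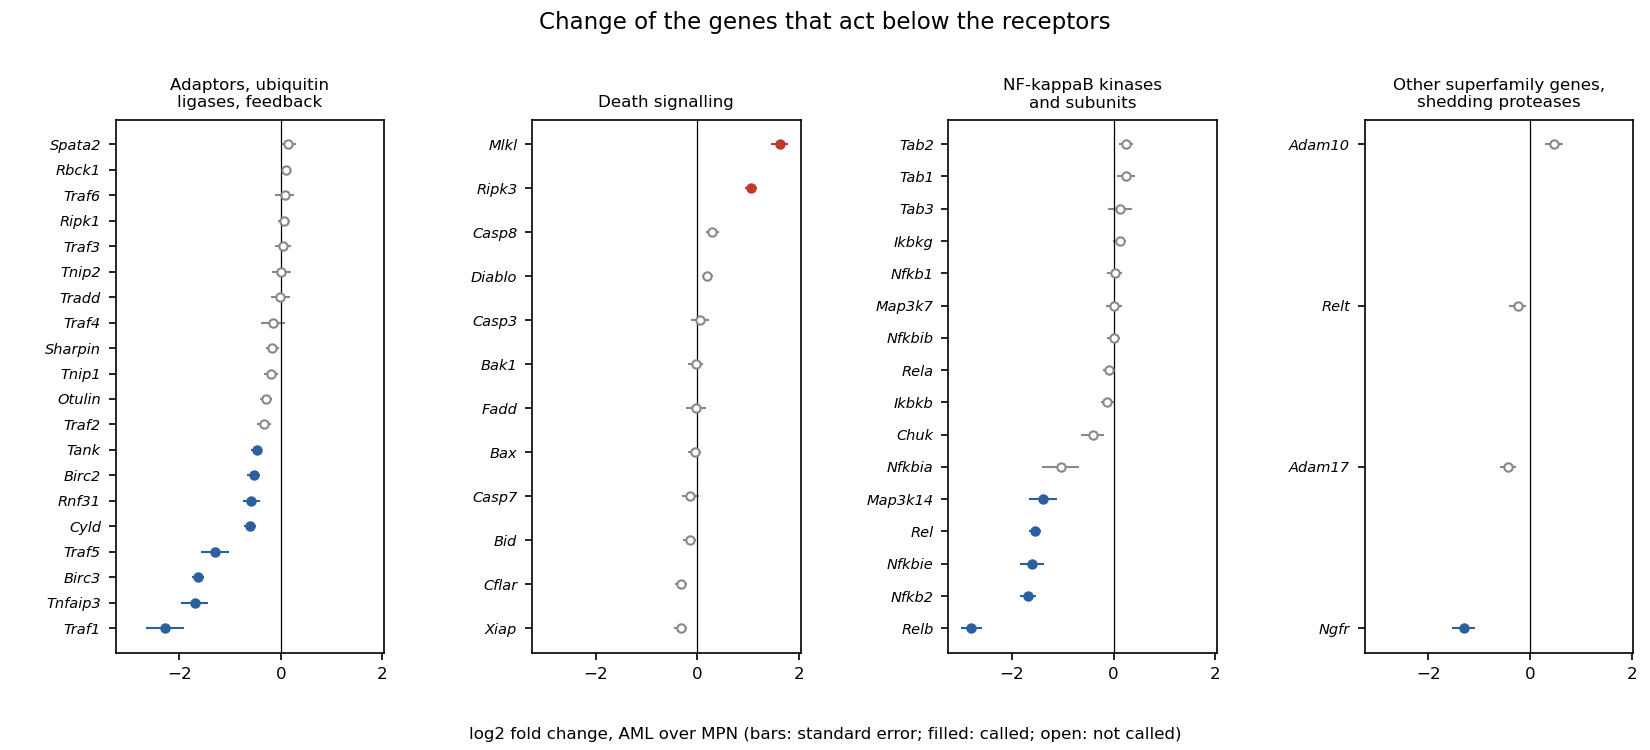
Log2 fold change of AML over MPN with its standard error for 52 tested genes that act below the receptors or beside the families, in 4 panels by list. Filled points are called, red higher and blue lower in AML; Relb at -2.80 is lowest, and Mlkl and Ripk3 are the only genes called higher.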

How the data were processed

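The authors deposited TPM values per gene symbol for 6 libraries, which per the file headers come from RSEM. They also deposited RPKM values (reads per length and per depth) by Ensembl identifier, whose low values show an added read. TopHat2, RSEM, Bowtie2, mm9 and mm10 are named per the submitters' processing notes without roles or versions. TPM keeps no depth. Relative depth came from RPKM steps, where low values lay within 0.05 of whole multiples of 1 read.

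Values were used as log2(TPM + 1). The groups were set against each other in limma 3.58.1 (R 4.3.3), using a mean-variance trend without covariates. Tests were two-sided, and Benjamini-Hochberg adjustment ran over all 12223 genes at 1 TPM or more in 3 or more libraries. Members, roles, 4 signalling lists and 11 marker lists were chosen with earlier results of these data known. All members are named; from each signalling list the 3 called genes with the smallest p in each direction. Replicate numbers follow accession order and pair none. The labels give 1 mouse per library, so p-values measure the spread between mice.

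The model was tested on simulated data of the AML and MPN comparison with 12223 genes, where it called 66% of 100 genes changed 2-fold and 91% of 100 changed 4-fold, with 7 false calls. The changed genes were drawn from those with a mean log2(TPM + 1) above 2. Noise was normal and equal in both groups, and no filter was applied to the simulated levels. These shares thus do not cover lower members such as Tnfsf11 and Tnfrsf9, or groups of unequal spread. Alternatives were pseudocounts of 0.1 and 5, no filter, 5 TPM, median scaling, quantile normalization, RPKM, no trend, array weights, a term for sex, by which AML replicate 3, a male, is set against MPN, and leaving out each mouse. All 42 members were found in the RPKM table, 1 by a RefSeq synonym. Positions are from GENCODE M21 on GRCm38 and promoters from RefSeq on GRCm38.p6; they serve for location only, since the sources used here do not give the build of either table.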

Additional observations from a re-analysis of the deposited data

How the results depend on the processing

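Of the 17 called members, 7 were called under every alternative that could be fitted (Cd27, Cd40, Ltb, Tnfrsf4, Tnfrsf9, Tnfrsf26 and Tnfsf11), 10 lost their call under at least 1, and none changed sign. With a term for sex 3 members were called higher and 4 lower, with 6 signalling genes lower, and over all genes 673 were higher and 535 lower. That fit rests on 1 AML mouse, assumed to vary like the others. With RPKM values, 7 members were lower. Array weights, whose estimate did not converge fully, called 2131 genes lower. Leaving out 1 mouse at a time left 4 to 7 members higher and 5 to 9 lower, 2 to 3 signalling genes higher and 9 to 14 lower, and over all genes 1291 to 2303 higher and 718 to 1402 lower. Leaving out a mouse also leaves fewer residual degrees of freedom.

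Signs turned only for uncalled members. Tnf had 0.41 with a term for sex, and ran from -0.36 to 0.33 with 1 mouse left out, above 0 without AML replicate 2, MPN replicate 1 or MPN replicate 2. Tnfrsf13b had -0.045 with median scaling, -0.047 with quantile normalization, and ran from -0.083 to 0.16 with 1 mouse left out, below 0 without AML replicate 2 or MPN replicate 1. Tnfsf13 had 0.42 with array weights and ran from -1.13 to 0.22 with 1 mouse left out, above 0 without AML replicate 1. Tnfsf14 had 0.10 with array weights, and Tnfsf8 had -0.069 with a term for sex. The cause was not tested. Members under the filter and members near 1 TPM have fold changes that depend on the pseudocount. No paired analysis was possible because the replicate numbers were given in accession order.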
